A study of Homo sapiens with 4 samples.

Results

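The genes described here encode the subunits of RNA polymerase II (Pol II) and of Mediator, the complex that links Pol II to transcription factors bound at enhancers. Members were chosen by gene name alone, as every row named MED or POLR2 with a subunit number or letter, plus CDK8, CDK19 and CCNC. The rule found 46 of the 60675 gene rows, 33 of Mediator and 13 of Pol II, with no gene listed in more than 1 row. RNA was sequenced in 4 replicate libraries of HT1080, a human fibrosarcoma cell line, all carrying a KDAC8 knockout. KDAC8, also named HDAC8, is a class I lysine deacetylase. No parental or other control library was analysed here, so the values are levels and library-to-library differences within the knockout, and no effect of the knockout can be read from them. The labels do not say whether the line is 1 clone, or whether the replicates were grown as separate cultures, so the spread between libraries may be technical.

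Pol II transcribes the protein-coding genes of the nucleus. Its large subunits form the active site, a pair of stalk subunits can leave and rejoin the enzyme, and a further set of subunits is shared with the polymerases that make ribosomal and transfer RNA. Mediator is built of a head and a middle that touch Pol II, a tail that many activators bind, and a scaffold subunit that runs through all 3. A separable kinase module, in which CDK8 or CDK19 pairs with cyclin C, docks on Mediator and limits its contact with Pol II. Vertebrates carry paralogs for 3 of its subunits, and a module holds 1 of each pair.

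The libraries held 39454210 to 45828807 counts each. Levels are given in CPM, counts brought to a common library size, with sizes scaled by TMM, a factor that aligns the bulk of genes between libraries. These factors ran between 0.963 and 1.03. Values written "±" are the SD over the 4 libraries (n = 4). HDAC8 itself had 80, 89, 95 and 107 counts in replicates 1 to 4, which gave 2.18 ± 0.242 CPM, and this gene-wide count cannot tell an edited transcript from an intact one. The mesenchymal genes VIM and CD44 stood at 4701 ± 283 and 1560 ± 85.8 CPM, while the epithelial genes EPCAM and CDH1 had 0 counts in all 4 libraries, a limit of 3 counts or 0.0662 to 0.0742 CPM per library. PTPRC of blood cells and PECAM1 of endothelium averaged 0.0117 and 0.0297 CPM.

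All 46 genes reached at least 1 CPM in each library, the criterion for detection used here. The median level was 32.5 CPM over the 46 members and 27.6 CPM over the 12984 genes detected by the same criterion. The Pol II genes ran between 20.6 and 226 CPM with a median of 74.7 CPM, and the Mediator genes between 2.08 and 146 CPM with a median of 30.4 CPM. POLR2A was the most abundant of the 46 by CPM and MED12L the scarcest. The plot of CPM by gene and library shows that differences between genes were far wider than those between libraries.

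**Figure D1:**
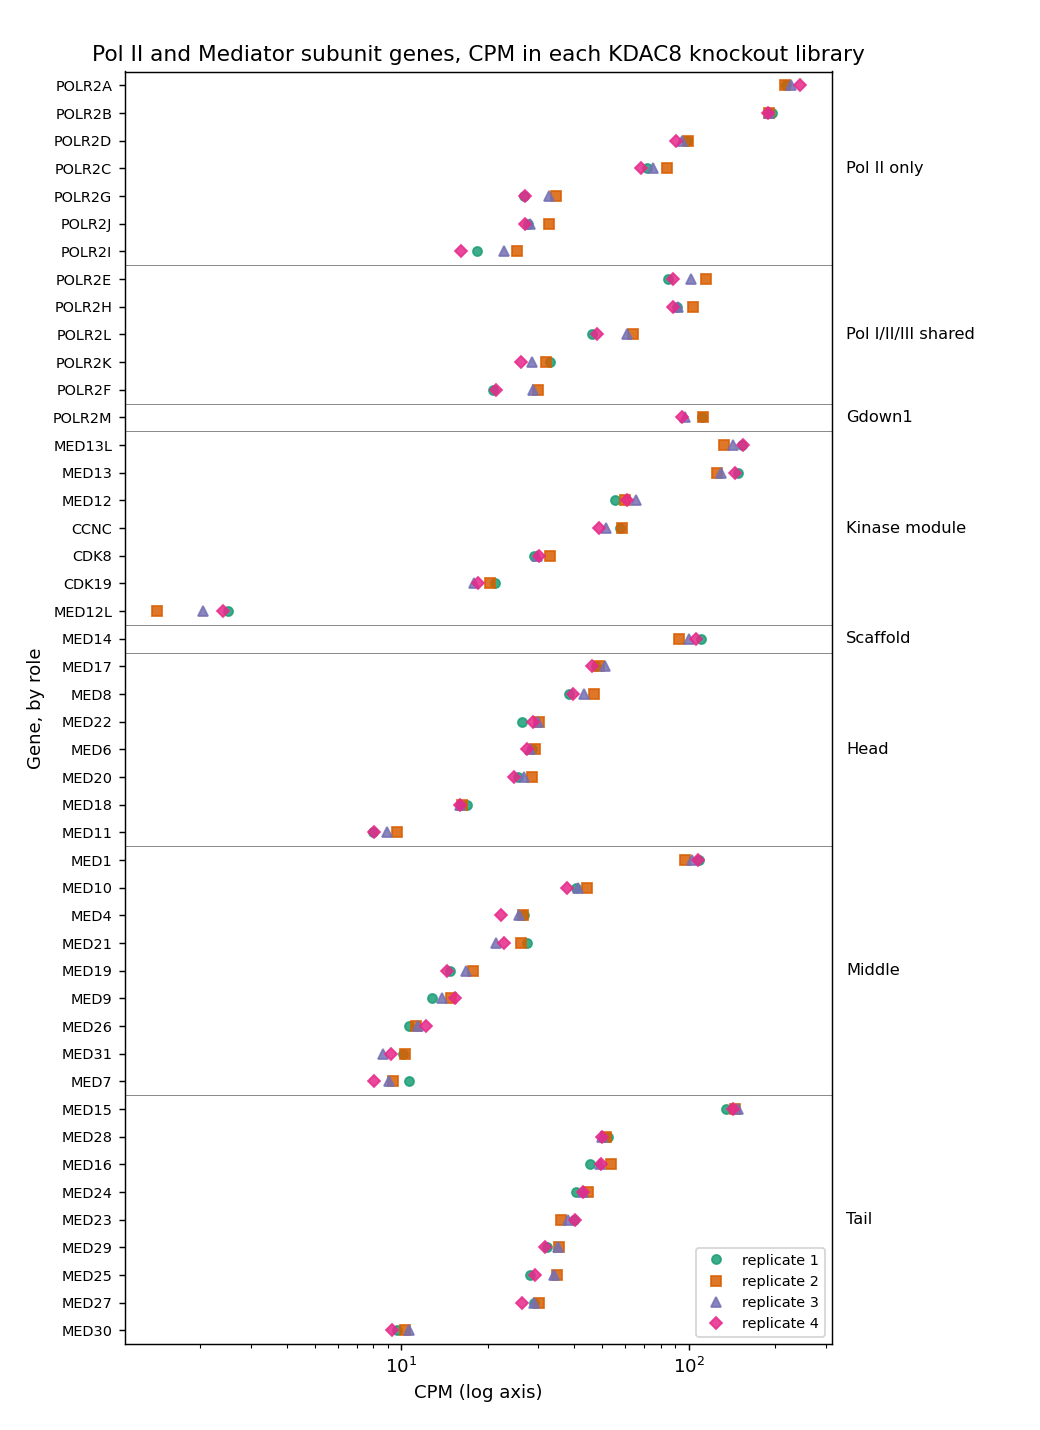
CPM (log axis) of the 46 subunit genes, Pol II above Mediator and grouped by role, with 1 marker for each of the 4 KDAC8 knockout libraries. The 4 markers of most genes nearly coincide, with MED12L near 2 CPM far to the left of all others and POLR2A at 226 CPM on average at the right.

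The pair of large catalytic subunits had the highest CPM of all members. POLR2A (ENSG00000181222, chr17:7484366-7514616, GRCh38, forward strand, 28 exon blocks) encodes the subunit that carries the C-terminal repeat domain, whose phosphorylation marks the steps of transcription. It had 218, 216, 228 and 244 CPM in replicates 1 to 4. POLR2B (ENSG00000047315, chr4:56977722-57031168, forward strand, 26 exon blocks) encodes the second-largest subunit. It had 195, 190, 191 and 189 CPM, the tightest of all members, with an SD of 0.02 on the log2 scale. POLR2A was thus highest in replicate 4 and lowest in replicate 2, by a slight margin below replicate 1, while POLR2B hardly moved.

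CPM does not take account of gene length, so levels were compared between genes per kilobase of annotated exon. On that scale POLR2A was at 27.1 ± 1.52 and POLR2B at 32.4 ± 0.435 CPM per kilobase. The log2 ratio of POLR2A to POLR2B within a library was -0.34, -0.31, -0.25 and -0.14, so POLR2A was the lower in 4 of 4 libraries. The mean ratio was -0.26 ± 0.09. The exact two-sided sign-flip permutation test gave p = 0.13, also after Benjamini-Hochberg adjustment over the 6 ratios examined, and this is the smallest p that 4 libraries allow. The order depends on the length used: without division by length POLR2A was the higher, with a log2 ratio of 0.24.

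Per kilobase of exon, the other Pol II genes lay between 15.7 and 48.0 CPM per kilobase, apart from POLR2F. POLR2L, a small subunit shared by Pol I, Pol II and Pol III, was the highest of the 46 genes at 48.0 ± 7.97 CPM per kilobase. By library it had 45.98, 64.0, 61.2 and 48.0 CPM, high in replicates 2 and 3 and low in replicates 1 and 4. POLR2H, another shared subunit, followed POLR2B at 29.7 ± 2.11 CPM per kilobase, and after POLR2A came POLR2J at 21.3 ± 1.95. POLR2J and POLR2C encode the pair of subunits on which assembly of the enzyme starts. POLR2E (shared, 20.02), POLR2C (19.0), POLR2D (18.4), POLR2K (shared, 17.5), POLR2I (16.2), POLR2M (15.8) and POLR2G (15.7) then lay close together in CPM per kilobase.

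Most neighbours in this order could not be set apart. A gene was set apart from the next when it was higher in 4 of 4 libraries and the mean log2 difference exceeded its SD. This held for 3 of the 12 neighbouring Pol II pairs, POLR2L over POLR2B, POLR2A over POLR2J, and POLR2G over POLR2F, and for none of the other 9. The stalk partners POLR2D and POLR2G averaged 95.9 ± 4.32 and 30.2 ± 3.95 CPM, yet 18.4 ± 0.826 and 15.7 ± 2.05 CPM per kilobase. POLR2G had 26.7, 34.4, 32.8 and 27.0 CPM, and was the lowest per kilobase of exon of the subunits that Pol II does not share. By longest transcript POLR2D was lower, at 19.0 against 19.4 CPM per kilobase. By coding length POLR2B and POLR2I were lower, at 54.3 and 54.9 against 58.6. POLR2M, the associated protein Gdown1 that competes with the initiation factor TFIIF for the enzyme, stood at 104 ± 9.48 CPM.

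POLR2F (ENSG00000100142, chr22:37952607-38041915, forward strand), a shared subunit, was the lowest Pol II gene per kilobase, at 3.58 ± 0.678. By library it had 20.9, 30.0, 28.6 and 21.3 CPM, with replicates 2 and 3 above replicates 1 and 4 as for POLR2L. Its annotated exons add up to 7042 bases, whereas its longest annotated transcript has 2106. Per kilobase of that transcript it reached 11.97 CPM, and it was the lowest Pol II gene by either length. By coding length it was the lowest of the Pol II genes ranked. POLR2A was not ranked by coding length, since GENCODE 29 holds no full coding transcript of it, so its place in that order is not known. Likewise POLR2L was the highest and MED12L the lowest of all members by either length, and of the members ranked by coding length.

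POLR2J had copies nearby whose reads could not be fully told apart from its own. POLR2J (ENSG00000005075, chr7:102473118-102478907, reverse strand) had 27.5, 32.7, 28.1 and 26.9 CPM, a mean of 28.8 ± 2.64. The row of POLR2J3 stood higher, at 66.8 ± 5.35 CPM, and POLR2J2 at 5.45 ± 0.848 CPM. A pair of rows both named POLR2J4 averaged 2.81 and 3.35 CPM. In GENCODE 29, 25.58% of the 100-base stretches of POLR2J transcripts also occur in another gene. POLR2J3 alone holds 20.22% of all POLR2J stretches, which is 272 of the 344 shared ones. The following 60 coding bases, from the reverse strand of GRCh38, show a shorter part that the copies have in common. POLR2J (chr7:102476186-102476245) and POLR2J3 (chr7:102569840-102569899) have 0 mismatches, and POLR2J2 (chr7:102668920-102668979) has 2, given in capitals.
POLR2J: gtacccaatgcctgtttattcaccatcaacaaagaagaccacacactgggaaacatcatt
POLR2J3: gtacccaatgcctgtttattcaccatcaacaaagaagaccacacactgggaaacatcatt
POLR2J2: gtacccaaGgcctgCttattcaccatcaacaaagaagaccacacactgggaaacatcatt
The longest run that POLR2J coding sequence shares without a mismatch was 221 of 351 bases with POLR2J2 and 96 bases with POLR2J3. These runs are from the coding sequence of 1 transcript per gene, while the 100-base stretches were counted over all annotated transcripts. POLR2J2 had the longer shared run but a far lower level than POLR2J3. Expected counts divide such reads by a model, so the level of POLR2J and the order of the 3 copies are uncertain.

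Of the 29 rows named as a copy, pseudogene or antisense transcript of a member, 16 were at 0 in every library and 4 were at 1 CPM or more in every library, all of them POLR2J copies. MED14OS, an antisense row of MED14, averaged 1.17 ± 0.348 CPM. In all, 9 members shared a 100-base stretch with another gene and 37 shared none. The share reached 10% or more in 5 members, led by MED26 with 35.5% and POLR2J, and followed by POLR2M (17.24%), MED17 (11.26%) and MED27 (11.11%). CDK8, CDK19, MED12, MED12L, MED13 and MED13L were among those that shared none, so the paralog pairs below are not subject to this limit.

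The Mediator core, that is head, middle, scaffold and tail, held 26 genes between 8.64 and 143 CPM. MED14 (ENSG00000180182, chrX:40648306-40735858, reverse strand), the scaffold, had 111, 92.7, 100.2 and 106 CPM, highest in replicate 1 and lowest in replicate 2. Per kilobase of exon it stood at 10.6 ± 0.804 CPM, above the median of the core, which was 7.25 CPM per kilobase. By coding length MED14 was below that median, at 23.5 against 25.4 CPM per kilobase.

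In the head, which contacts Pol II and the general factors, the 7 genes lay between 2.92 and 15.5 CPM per kilobase. MED8 was the highest, with 38.4, 47.0, 43.1 and 39.6 CPM. MED17, the central head subunit, was the lowest per kilobase although its 47.7, 48.9, 51.1 and 46.1 CPM exceeded those of MED8 in every library. The annotated exons of MED17 span 16610 bases against 2704 for MED8, and per kilobase of the longest transcript MED17 reached 9.42 CPM and MED8 21.8 CPM. By longest transcript MED22 was the lowest of the head, at 6.59 CPM per kilobase. By coding length MED11 was the lowest, at 24.6 against 24.8 for MED17, and MED22 the highest, at 48.0 against 46.5 for MED8.

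In the middle, the 9 genes lay between 2.13 and 21.8 CPM per kilobase. MED10 was the highest of all Mediator genes by all exons, by the longest transcript and by coding length, with 40.6, 44.2, 41.1 and 37.8 CPM. MED1, the subunit bound by nuclear receptors, had the most CPM of the middle, 104 ± 5.17, and 14.2 ± 0.705 CPM per kilobase. MED26, which recruits elongation factors, was the lowest per kilobase, with 10.7, 11.3, 11.4 and 12.2 CPM. The same MED26 row had the largest share of sequence in common with other annotated genes, so its level is uncertain.

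In the tail, grouped here with the MED27 to MED30 subunits, the 9 genes lay between 4.10 and 13.8 CPM per kilobase. MED15, known as the partner of the sterol regulator SREBP, was the highest, with 135, 145, 149 and 143 CPM. MED25, bound by the activator VP16, was the lowest per kilobase of exon, with 28.1, 34.9, 33.9 and 29.2 CPM. These ranks depend on the length. By longest transcript MED28 was the lowest, at 4.69 CPM per kilobase against 9.44 for MED25. By coding length MED23 was the lowest, at 9.34 against 14.1 for MED25, and MED28 exceeded MED15, at 94.9 against 60.4. MED25 was high in replicates 2 and 3. The tail genes MED15, MED29 and MED30 also had both of these replicates above replicates 1 and 4, as did MED27 by a slight margin. MED16, MED24, MED23 (39.97, 35.9, 38.0 and 40.2 CPM) and MED28 (52.4, 51.4, 49.9 and 50.04 CPM) did not. Over all of Mediator, 8 of 32 neighbouring pairs in the order per kilobase were set apart by the same rule and 24 were not.

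In the kinase module, MED13 was the highest per kilobase of exon at 10.8 ± 0.885, followed by CCNC at 9.39 ± 0.837, CDK8 at 8.60 ± 0.513 and MED12 at 8.14 ± 0.554 CPM per kilobase. None of the neighbouring pairs among these 4 genes was set apart by the rule above, since the order held in 3 of 4 libraries for each pair. MED13 over CCNC came closest, with a mean log2 difference of 0.21 ± 0.19. MED13L at 3.90 ± 0.274, CDK19 at 2.60 ± 0.209 and MED12L at 0.165 ± 0.0386 CPM per kilobase each lay below the gene before it in 4 of 4 libraries. CDK8, MED12 and MED13 thus each had more CPM per kilobase of exon than their paralogs, an order that for MED13 turned round by coding length or with no division by length. The order within the module also depended on the length. By longest transcript CCNC was the highest, at 21.9 CPM per kilobase against 13.1 for MED13. By coding length it was again the highest, at 63.8 against 21.1. MED13L exceeded MED12 by both, at 9.97 against 8.67 and 21.9 against 9.26 CPM per kilobase. CCNC, which encodes cyclin C, had 57.8, 58.6, 51.5 and 48.7 CPM.

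The kinases themselves were both present. CDK8 (ENSG00000132964, chr13:26254104-26405238, forward strand) had 28.9, 33.03, 29.7 and 30.1 CPM. CDK19 (ENSG00000155111, chr6:110609978-110815958, reverse strand) had 21.2, 20.3, 17.9 and 18.4 CPM, below CDK8 in every library. The log2 ratio of CDK8 to CDK19 per kilobase was 1.53, 1.78, 1.81 and 1.79, a mean of 1.73 ± 0.13 or 3.31-fold (exact sign-flip permutation p = 0.13, higher in 4 of 4 libraries). The fold fell to 1.69 by coding length and 1.56 without division by length, with the same direction in each library. Replicate 1 stood apart from the other 3 in this ratio.

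MED12 and MED12L were the most unequal pair. MED12 (ENSG00000184634, chrX:71118556-71142454, forward strand, 45 exon blocks), the subunit that activates the kinase, had 55.4, 60.1, 65.5 and 60.9 CPM. MED12L (ENSG00000144893, chr3:151085697-151437072, forward strand, 48 exon blocks) had 2.49, 1.41, 2.04 and 2.39 CPM, and 6.08% of detected genes had a lower mean. In counts this was 101, 59, 92 and 101, for which the exact Poisson 95% interval was 44.9 to 76.1 counts in replicate 2 and 82.3 to 123 in replicates 1 and 4. The interval covers counting error only. MED12 exceeded MED12L in 4 of 4 libraries, by a mean log2 ratio per kilobase of 5.66 ± 0.41 or 50.5-fold (exact sign-flip permutation p = 0.13). Without division by length the ratio was 29.7-fold, and 28.8% of the exonic bases of MED12L lie opposite exons of IGSF10, which stood at 1.17 ± 0.188 CPM.

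The promoters of this pair are shown because their genes differed most in level. Each is the RefSeq window from GRCh38.p14 that runs from 250 bases before to 50 bases after the start, MED12 at chrX:71118346-71118645 and MED12L at chr3:151085414-151085713, both on the forward strand. Capitals mark matches on either strand to 5 motifs: the TATA box TATAAA, the CCAAT box CCAAT, the GC box GGGCGG, the ETS core CCGGAAG and the NRF1 core GCATGCGC.
MED12: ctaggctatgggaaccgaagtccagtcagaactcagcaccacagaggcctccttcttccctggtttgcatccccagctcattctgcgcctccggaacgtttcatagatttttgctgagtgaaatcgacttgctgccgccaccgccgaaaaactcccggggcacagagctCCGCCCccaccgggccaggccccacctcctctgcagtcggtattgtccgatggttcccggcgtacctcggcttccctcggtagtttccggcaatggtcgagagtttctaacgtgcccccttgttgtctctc
MED12L: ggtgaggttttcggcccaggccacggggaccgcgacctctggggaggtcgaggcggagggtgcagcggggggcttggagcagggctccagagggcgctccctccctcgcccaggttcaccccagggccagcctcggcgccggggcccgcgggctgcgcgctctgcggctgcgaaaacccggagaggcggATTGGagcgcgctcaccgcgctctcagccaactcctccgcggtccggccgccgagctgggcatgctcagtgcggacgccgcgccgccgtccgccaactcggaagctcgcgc
The MED12 window holds 1 GC box, 20 CpG dinucleotides and 59.0% GC. The MED12L window holds 1 CCAAT box on the reverse strand, 39 CpG dinucleotides and 75.3% GC, so the gene with the lower level has the richer window in CpG. A match is a description of letters and not a site of binding.

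MED13 and MED13L were close in CPM. MED13 (ENSG00000108510, chr17:61942605-62065282, reverse strand), the link between kinase module and core, had 149, 126, 130 and 145 CPM. MED13L (ENSG00000123066, chr12:115953872-116277719, reverse strand) had 153, 132, 143 and 154 CPM. Both were lowest in replicate 2. Per kilobase of exon MED13 was the higher, with a mean log2 ratio of 1.47 ± 0.04 or 2.78-fold in 4 of 4 libraries (exact sign-flip permutation p = 0.13). This order rests on the length, since MED13L has 37364 annotated exonic bases against 12677 for MED13. The log2 ratio was 0.40 by longest transcript, -0.06 by coding length and -0.09 with no division, so the direction turned round in the last 2 cases.

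**Figure D2:**
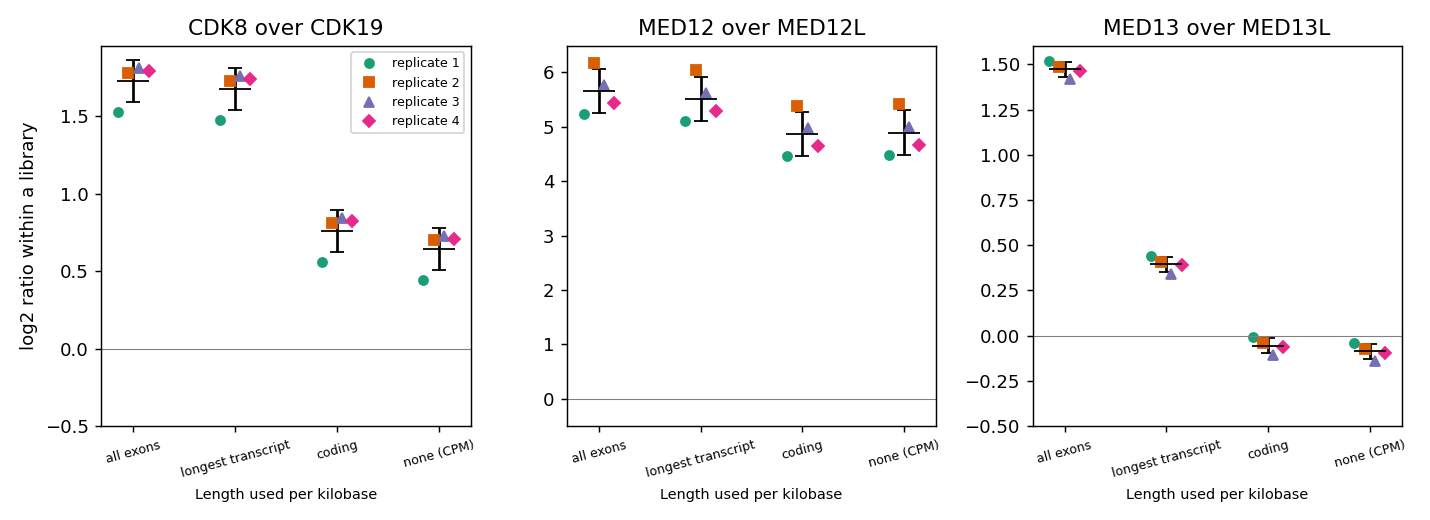
Log2 ratio within each library of the CDK8, MED12 and MED13 genes to their paralogs CDK19, MED12L and MED13L, by the length used for the level per kilobase. Markers are the 4 libraries, bars the mean and SD, and the grey line at 0 is an equal level, which MED13 over MED13L reaches and passes with coding length or none.

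Pol II genes as a group were above Mediator genes in every library. The median over the 13 Pol II genes was 19.2 ± 1.64 CPM per kilobase and that over the 33 Mediator genes 7.49 ± 0.397. The log2 ratio of these medians was 1.34, 1.41, 1.37 and 1.29, a mean of 1.35 ± 0.05 or 2.55-fold (exact sign-flip permutation p = 0.13, the smallest possible). Other lengths gave 1.59 by longest transcript, 1.94 by coding length (without POLR2A) and 1.303 with no length. The kinase module and the Mediator core were not separated in the same way. Their medians were 8.04 ± 0.401 and 7.16 ± 0.346 CPM per kilobase with a log2 ratio of 0.17 ± 0.12, which became -0.09 by longest transcript, -0.35 by coding length and 0.88 with no length.

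Most members varied between the 4 replicate libraries by more than counting noise, mostly by small amounts. Of the 46 genes, 38 passed a chi-square homogeneity test with Benjamini-Hochberg adjusted p under 0.05, and the same held for 59.2% of the 16790 genes tested. This test gains power with counts, and among tested genes averaging at least 10 CPM 77.7% passed, so the share of members, 82.6%, was close to that background. All 46 passed the minimum of 10 mean counts. In RNA from bulk cultures, fewer cells with a transcript and less of it per cell cannot be told apart. The median ratio of highest to lowest library was 1.18 over members and 1.18 over all detected genes. A range of 1.5 times or more was found in 2 of the varying members, MED12L (1.76) and POLR2I (1.56), against 12.3% of tested genes. The share was 6.58% over detected genes and 1.75% over genes averaging at least 10 CPM, a level that POLR2I reaches and MED12L does not.

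By role, 12 of 13 Pol II genes (92.3%) and 26 of 33 Mediator genes (78.8%) varied. The share was 77.7% of all tested genes averaging at least 10 CPM. The test gains power with counts, and Pol II had the higher median, 74.7 against 30.4 CPM. The groups are also small, so these counts do not set the roles apart. The exception in Pol II was POLR2B (adjusted p = 0.3004 by the chi-square test). All 5 shared subunits, 6 of 7 Pol II-only subunits and POLR2M varied, as did all 7 kinase module genes, MED14, 5 of 7 head genes, 7 of 9 middle genes and 6 of 9 tail genes. MED6, MED18, MED24, MED26, MED28, MED30 and MED31 were the Mediator genes that did not pass, with adjusted p between 0.0502 for MED24 and 0.779 for MED18 in the chi-square test. A p above 0.05 does not show that their levels were equal.

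The spread was widest in MED12L, POLR2I and POLR2F. The SD on the log2 scale was 0.37 for MED12L, 0.29 for POLR2I and 0.27 for POLR2F, against a median of 0.11 over members and 0.11 over all detected genes. POLR2I (ENSG00000105258, chr19:36113710-36115346, reverse strand), a subunit tied to transcript fidelity and start-site choice, had 18.3, 25.2, 22.7 and 16.1 CPM. It was high in replicates 2 and 3, like POLR2F and POLR2L. MED12L went the other way, with its lowest value in replicate 2. The median SD was 0.13 over Pol II genes and 0.10 over Mediator genes, and 0.20 over the 5 shared subunits.

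Many members peaked in replicate 2. Of the 46, 25 (54.3%) had their highest CPM there, against 34.4% of detected genes, and 20 (43.5%) their lowest in replicate 4, against 31.7%. These included 10 and 8 of the 13 Pol II genes. Counting varying members, 22 were highest in replicate 2, or 47.8% of the 46, against 20.9% of tested genes that varied and were highest there and 31.7% of genes averaging at least 10 CPM. A further 9 (19.6%) were highest in replicate 1, against 13.8% of tested genes and 20.96% of genes averaging at least 10 CPM. In replicate 3 it was 3 (6.52%), against 8.81% and 11.9%, and in replicate 4 it was 4 (8.70%), against 15.7% and 13.05%. Of the varying members, 16, or 34.8% of the 46, were lowest in replicate 4, against 18.6% of tested genes and 29.01% at 10 CPM or above. In replicate 1 it was 13 (28.3%), against 15.6% and 19.95%. In replicate 2 it was 7 (15.2%), against 16.9% and 19.5%, and in replicate 3 it was 2 (4.35%), against 8.24% and 9.22%. The most common profiles were high in replicate 2 and low in replicate 4, in 13 members, and high in replicate 2 and low in replicate 1, in 11. These counts depend on the scaling: with total counts in place of TMM, 16 members were highest in replicate 2 and 18 in replicate 1, while 8 of 13 Pol II genes still peaked in replicate 2.

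A smaller set ran the other way. MED1, MED14, MED12L and MED13 were highest in replicate 1 and lowest in replicate 2, and MED23, MED13L and POLR2A were highest in replicate 4 and lowest in replicate 2. All 7 have a longest transcript of 5233 bases or more, against a median of 2943 over members. POLR2A was thus among the 3 Pol II genes that did not peak in replicate 2, with POLR2B and POLR2K, which were highest in replicate 1. The low of POLR2A in replicate 2 was slight, 216 CPM against 218 CPM in replicate 1. The heat map of deviations shows both sets.

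**Figure D3:**
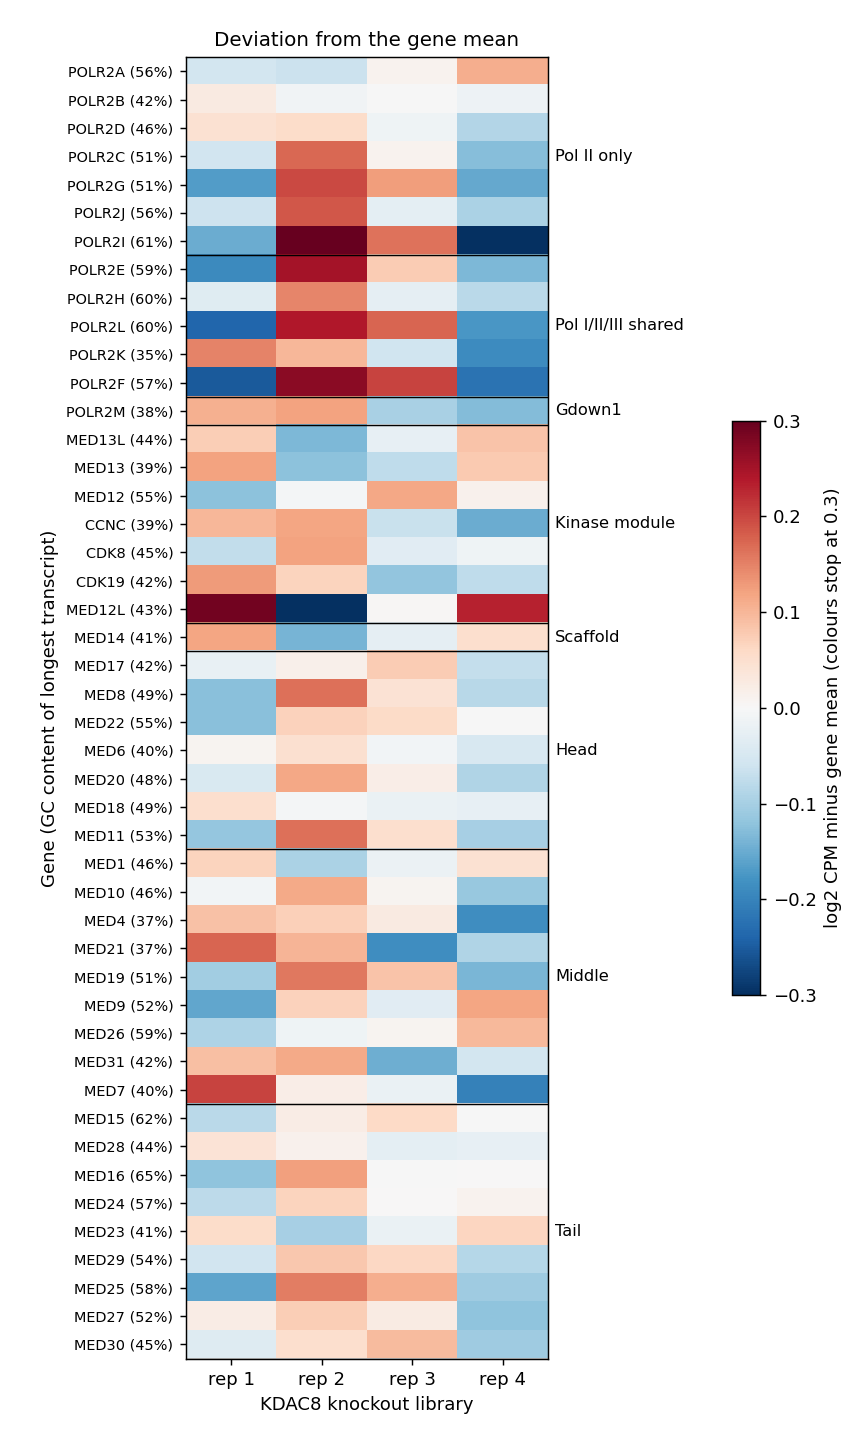
Deviation of log2 CPM from the gene mean in each KDAC8 knockout library for the 46 subunit genes, with the GC content of the longest transcript beside each name. Red is above and blue below the mean, with colours stopping at 0.3. POLR2I, POLR2F, POLR2L and POLR2E are red in replicate 2 and blue in replicates 1 and 4, while MED12L, MED13, MED13L and MED14 are blue in replicate 2.

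The median deviation over all 46 members was -0.04, 0.07, 0.00 and -0.08 on the log2 scale in replicates 1 to 4. Over all detected genes it was -0.01, 0.02, 0.01 and -0.02. For Pol II it was -0.06, 0.17, 0.01 and -0.13, and for Mediator -0.01, 0.07, 0.00 and -0.05. The difference between members and all detected genes ranged over 0.11 log2 units between libraries, and over 0.0336 without replicate 2, so it rested mostly on that library.

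GC content and transcript length moved with these deviations. Across the 46 genes, the deviation in replicate 1 had a Pearson correlation of -0.80 (Spearman -0.82) with the GC content of the longest transcript. In replicates 2, 3 and 4 it was 0.39, 0.60 and -0.04. With the log2 length the correlation was 0.33, -0.70, -0.23 and 0.71 in replicates 1 to 4. Over 12922 detected genes with an annotated transcript the same values were -0.56, 0.27, 0.41 and -0.09 for GC content and 0.27, -0.35, -0.16 and 0.23 for length. The genes share the libraries and the 4 deviations of a gene add up to 0, so these are descriptions, without a test.

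**Figure D4:**
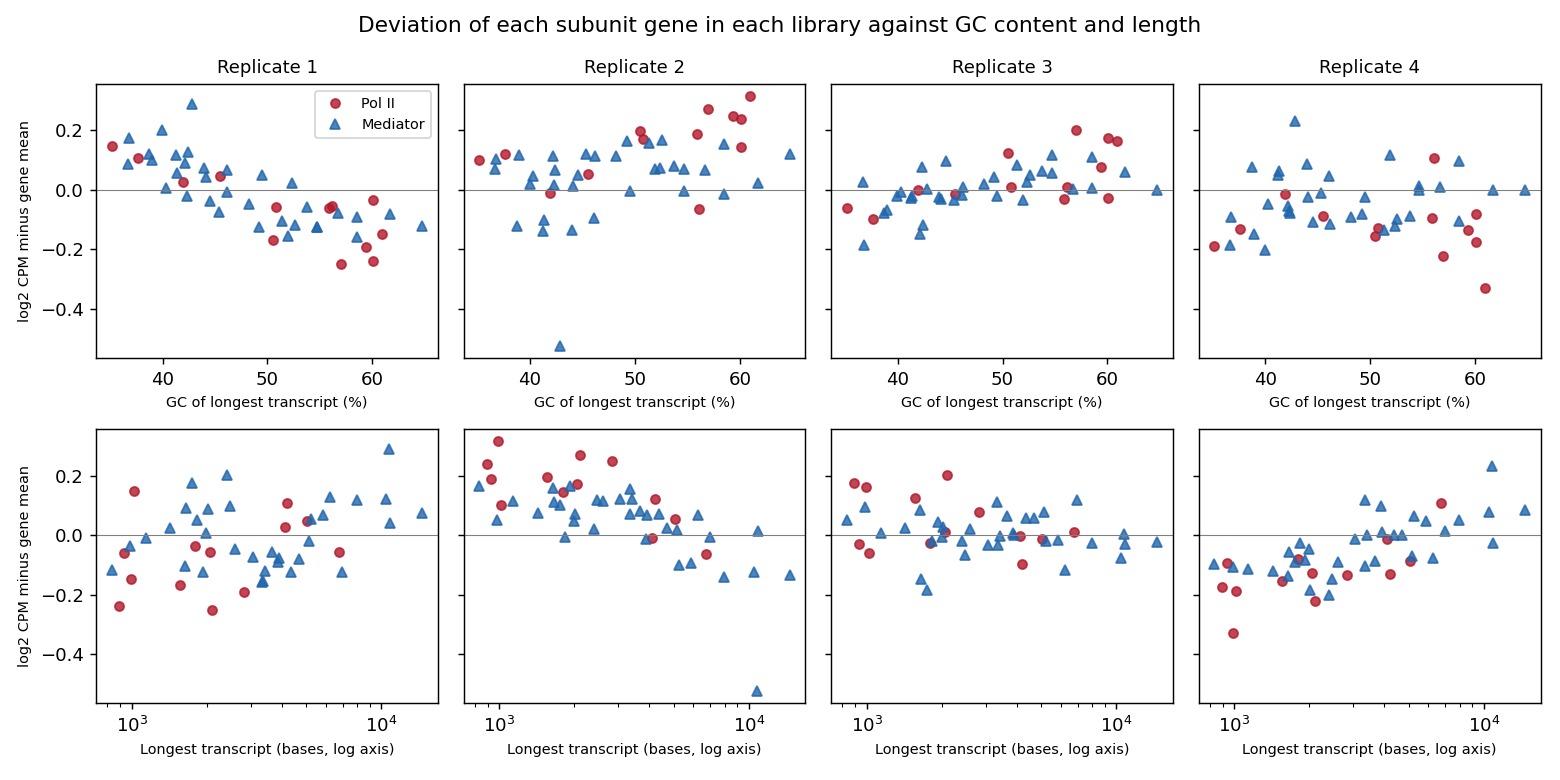
Deviation of log2 CPM from the gene mean against the GC content (upper row) and the length on a log axis (lower row) of the longest transcript, 1 panel per KDAC8 knockout library, with Pol II genes as red circles and Mediator genes as blue triangles. Points slope down with GC content in replicate 1, and with length they slope down in replicate 2 and up in replicate 4.

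In bands of GC content, 4 of the 18 members under 45% GC were highest in replicate 2, against 12 of 16 members between 45% and 55% and 9 of 12 at 55% or more. Over all detected genes these shares were 22.1%, 36.3% and 50.5% in the same bands, against 22.2%, 75.0% and 75.0% of members, so a higher share at higher GC content was common to both. Pol II genes had a median GC content of 55.9% and a median longest transcript of 2057 bases, while Mediator genes had 46.1% and 3351 bases. All detected genes had 47.7% and 3657 bases. Pol II genes were therefore richer in GC and shorter than Mediator genes.

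Each library was then fitted with a curve of GC content and length over 9466 genes averaging at least 10 CPM. After the curve 26 of the 46 members varied, against 45.5% of all tested genes. Of the 78 genes of the partner lists described below, 43 varied after it. The share among genes averaging at least 10 CPM was not computed after the curve, so no excess of members can be read from this. Of the 38 members that varied before, 25 still did and 13 did not, among them POLR2J, MED15 and MED13L, and MED28 was added. The median SD over members fell to 0.07 log2 units after the curve, against 0.11 before it, and over all detected genes to 0.08 against 0.11. Pol II deviations after the curve were -0.01, 0.06, -0.01 and -0.07, smaller than before but of the same sign in replicates 1, 2 and 4. The part of GC content and length in what remained was not tested.

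Promoter windows were found for 34 of the 46 members, 41 windows in all. They had a median of 24 CpG dinucleotides and 59.3% GC, against 14 and 58.7% over all 35116 windows in the RefSeq table. The GC box occurred in 26 windows (63.4%) against 44.95% of all, the ETS core in 13 (31.7%) against 10.3%, and the NRF1 core in 6 (14.6%) against 3.05%. The TATA box was found in 3 windows (7.32%), of MED7, MED16 and POLR2M, against 11.5% of all, and the CCAAT box in 11 (26.8%) against 34.6%. The background windows were not limited to genes detected here, whereas all members were detected. The shares therefore do not show whether members differ from other detected genes. Windows of the same gene can overlap, so they are not independent, and no test was made.

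POLR2A and POLR2F are shown because the large subunit was lowest and the shared subunit highest in replicate 2. Both are on the forward strand of GRCh38.p14, POLR2A at chr17:7484116-7484415 and POLR2F at chr22:37953449-37953748, with capitals as for MED12.
POLR2A: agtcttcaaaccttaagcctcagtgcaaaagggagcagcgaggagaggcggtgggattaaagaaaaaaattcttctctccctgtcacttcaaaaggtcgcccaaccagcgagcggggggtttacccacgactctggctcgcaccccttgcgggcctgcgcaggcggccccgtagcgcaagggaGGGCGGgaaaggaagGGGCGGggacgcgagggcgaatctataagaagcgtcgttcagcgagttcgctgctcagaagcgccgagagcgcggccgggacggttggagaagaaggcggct
POLR2F: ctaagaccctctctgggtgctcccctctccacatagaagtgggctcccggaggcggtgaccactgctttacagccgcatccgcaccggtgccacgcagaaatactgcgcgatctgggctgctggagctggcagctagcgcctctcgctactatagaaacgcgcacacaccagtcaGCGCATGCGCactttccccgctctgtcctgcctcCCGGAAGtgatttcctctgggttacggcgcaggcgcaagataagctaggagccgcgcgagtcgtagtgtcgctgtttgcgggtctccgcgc
The POLR2A window has 2 GC boxes, 28 CpG dinucleotides and 61.3% GC. The POLR2F window has 1 ETS core, and an NRF1 core that reads on both strands and so counts as 2 overlapping matches, with 27 CpG dinucleotides and 62.3% GC. Neither holds a TATA box of the letters searched.

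Overlap with other genes limits some levels, since the use of strand in counting is not given in the sources used here. Exons of 23 members lie over exons of a gene on the opposite strand. In 6 members 20% or more of the exonic bases lie under 1 such gene. MED31 (9.59 ± 0.810 CPM) has 58.35% of its exonic bases opposite TXNDC17, which stood at 22.2 ± 2.07 CPM, and POLR2I has 32.86% opposite TBCB at 45.3 ± 6.21 CPM. TBCB had 40.9, 53.6, 46.4 and 40.2 CPM, highest in replicate 2 and lowest in replicate 4 like POLR2I, and its part in the POLR2I values was not tested. POLR2L has 22.5% opposite CD151 at 233 ± 15.7 CPM. For MED28 and MED11 the opposite gene was close to 0, at 0.0449 and 0.0129 CPM.

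The partners of Pol II and Mediator at promoters and in elongation were measured in the same libraries. All 78 genes of 8 lists were detected, and 58 varied (74.4%), against 59.2% of all tested genes and 77.7% of those averaging at least 10 CPM, as 77 of the 78 did. TFIID with TBP, which recognises core promoters, had 9 of 16 genes varying, from TAF1 at 80.2 ± 3.53 CPM to TAF11 at 11.5 ± 0.980. TFIIA, TFIIB, TFIIE and TFIIF had 5 of 7 varying, with GTF2F1 the highest at 74.9 ± 5.85 CPM and GTF2B the lowest at 20.8 ± 1.52. TFIIH, which opens the promoter and phosphorylates the repeat domain of POLR2A, had 8 of 10 varying, from GTF2H3 at 97.0 ± 8.49 CPM to GTF2H4 at 13.8 ± 1.64.

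Pausing and elongation factors had 17 of 20 genes varying, with the histone chaperone subunit SSRP1 at 318 ± 15.9 CPM the highest and ELL at 25.6 ± 2.63 the lowest. Pol II assembly factors and phosphatases of the repeat domain had 9 of 10 varying, from CTDSP2 at 112 ± 3.49 CPM to GPN3 at 23.9 ± 1.77. RPAP2, a phosphatase that acts on the repeat domain, was the most variable of the 78, with 46.8, 40.9, 43.7 and 61.0 CPM. It was highest in replicate 4 and lowest in replicate 2, as was POLR2A. TAF12 had 11.3, 13.2, 12.7 and 9.49 CPM, GTF2A2 34.3, 39.3, 33.2 and 28.1 CPM, and NELFE 72.7, 92.7, 82.0 and 68.8 CPM. These, the most variable of their lists, were instead highest in replicate 2 and lowest in replicate 4, as were 13 members of Pol II and Mediator.

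Subunits found in Pol I or Pol III gave a comparison for the shared subunits, from lists that do not hold every subunit of these enzymes. All 3 Pol I genes listed varied, with POLR1B at 156 ± 4.57 CPM and POLR1E at 47.5 ± 2.65. Both listed genes shared by Pol I and Pol III varied as well, POLR1D at 91.3 ± 5.37 and POLR1C at 43.3 ± 2.57. Of the 10 Pol III genes listed 5 varied, from POLR3A at 85.3 ± 2.22 CPM to POLR3GL at 5.47 ± 0.543. POLR3K was the most variable of these, at 13.6, 17.8, 17.0 and 14.0 CPM. POLR3K, like the shared subunits POLR2F and POLR2L, was high in replicates 2 and 3 and low in replicates 1 and 4. The median SD on the log2 scale was 0.20 over the shared subunits, against 0.07 over the 10 Pol III genes and 0.07 over the 3 Pol I genes listed. The sets also differed in GC content and length of the longest transcript. The medians were 59.4% and 1802 bases for the shared subunits, 48.3% and 3779 for Pol III and 51.1% and 5059 for Pol I. The differences in SD, and the part of GC content and length in them, were not tested.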

How the data were processed

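Total RNA of 4 KDAC8 knockout libraries was depleted of ribosomal RNA and sequenced as read pairs, per the labels' protocols. The submitters' processing notes name RSEM 1.3.3, Bowtie2 2.5.4, Trimmomatic 0.39, DESeq2 1.46.0 and the GRCh38 build, without their roles. Annotation release and strand setting were not given in the sources used here. Expected counts were deposited by the authors per gene, unscaled, with 10.6% to 11.9% of values not whole. No column of per-sample values was left unused.

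Counts were rounded and scaled with edgeR 4.0.16 (TMM). Genes averaging at least 10 counts were tested for homogeneity over the libraries by chi-square (3 degrees of freedom) on the whole table, with Benjamini-Hochberg adjustment. For single genes 0.01 CPM was added before taking logs. Log2 ratios within a library were tested by exact two-sided sign-flip permutation. Lengths, GC content and overlaps came from GENCODE 29, which holds 94.03% of the gene IDs, and promoters from RefSeq GRCh38.p14. In data simulated with counting noise only, the chi-square test called most of the larger seeded changes and few unchanged genes. Such data lack any further spread between libraries, so this checks the calculation and not the calls made here. Members and lists were chosen with earlier results of these data known. Genes given by library were HDAC8, paralog pairs, POLR2A, POLR2B, MED14, CCNC, the highest and lowest of each module per kilobase, and the 3 most variable members, and in other lists the highest, lowest and most variable gene were named, with the mean and SD or the values by library. MED23, MED28, POLR2J and TBCB were given by library after their values were seen. Alternatives were DESeq2 1.42.0 size factors, total counts, other count minimums, other lengths, leaving out a library, and a GC and length curve added after seeing the data. Intervals cover counting error only.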

Additional observations from a re-analysis of the deposited data

Results flagged for a closer look

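The log2 ratio of CDK8 to CDK19 per kilobase of exon was 1.526 in replicate 1, against 1.78, 1.81 and 1.79 in replicates 2 to 4. Replicate 1 stood apart from the nearest other library by 0.895 of the whole range, above Dixon's 95% critical value for 4 values. In that library CDK8 was at its lowest, 28.9 CPM, and CDK19 at its highest, 21.2 CPM. Of 52 series of 4 values examined this was the 1 that passed, and chance passes about 1 in 20.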

How the results depend on the processing

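Levels per kilobase depend on the annotated length. Without division by length the log2 ratio was -0.087 for MED13 against MED13L, 0.242 for POLR2A against POLR2B and 0.88 for the kinase module against core Mediator. By coding length it was -0.055 for MED13 against MED13L and -0.354 for the kinase module against core Mediator, and by longest transcript -0.087 for that module, and all of these but the 0.88 had the direction turned round, because the lengths differ. POLR2A against POLR2B by coding length was not run, since GENCODE 29 holds no full coding transcript of POLR2A. Requiring a range of 1.5 times left 2 varying members in place of 38, and the GC and length curve moved the shift of members against all genes to 0.0629 from 0.114 log2 units.

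Leaving out each replicate in turn kept all 46 members detected and gave 30 to 38 varying members, 45 to 57 varying genes of the other lists and a list shift of 0.0336 (without replicate 2) to 0.120. The log2 ratios were then 1.70 to 1.80 for CDK8, 5.48 to 5.80 for MED12 and 1.457 to 1.49 for MED13 over their paralogs, -0.30 to -0.23 for POLR2A against POLR2B, 1.33 to 1.37 for Pol II against Mediator, and 0.13 to 0.21 for the kinase module against the core. No paired analysis was possible because the samples analysed here form 1 group.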
